A study of Mus musculus with 15 samples.

Results

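Mature miRNAs of the genes Mir34b, Mir34c, Mir449a, Mir449b and Mir449c were followed in small RNA libraries of whole mouse lung. The members are all rows of the deposited table whose name starts with mmu-miR-34b, mmu-miR-34c, mmu-miR-449a, mmu-miR-449b or mmu-miR-449c, on either arm of the hairpin. These genes were chosen with earlier results of these data known. Given that choice, the name alone decided membership, and it gave 9 of the 1424 mature miRNAs in the table. They are mmu-miR-34b-5p, mmu-miR-34b-3p, mmu-miR-34c-5p, mmu-miR-34c-3p, mmu-miR-449a-5p, mmu-miR-449a-3p, mmu-miR-449b, mmu-miR-449c-5p and mmu-miR-449c-3p, written below without the species prefix. The 15 libraries came from 4 groups of 11-week-old C57BL/6 mice, male and female, with the sex of each mouse not given in the sources used here. R213G mice carry 2 copies of the R213G form of EC-SOD, an antioxidant enzyme secreted from cells, while WT mice carry the normal enzyme. One group of R213G mice received bleomycin (n = 4) and the other phosphate-buffered saline, PBS (n = 4). WT mice likewise received bleomycin (n = 4) or PBS (n = 3). Bleomycin, which breaks DNA and is used as a model of lung injury, was given once into the trachea as 100 uL at 1 U/mL, and lungs were taken 7 days later, with their vessels flushed by PBS from the right ventricle. Each library is taken as 1 mouse, so the p-values measure the spread between these libraries.

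The miR-34 and miR-449 miRNAs form 1 family, defined by a shared seed, the bases near the 5′ end that pair with target mRNAs. Multiciliated cells, which in the lung line the airways and move mucus with their beating cilia, are known for high levels of miR-34b, miR-34c and miR-449. There the family is known to act in the programme that makes many cilia, by repressing Cp110, a centriole cap protein that holds back cilium growth, and members of the Notch pathway. A separate known input is p53, the DNA damage response factor, which induces transcription of Mir34a and of the Mir34b and Mir34c unit. The mRNA markers of ciliated cells are not measured in a table of miRNAs, so the link of these rows to ciliated cells rests on that background and was not tested here. In whole lung, fewer cells of a type and less RNA per cell cannot be told apart.

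The sequences below show why the members fall into groups by strand, with the seed (bases 2 to 8) in capitals, each read 5′ to 3′. They come from RefSeq on GRCm38.p6, where 7 of the 9 members matched by name. Entries were not matched for miR-34c-5p and miR-449b.
miR-34b-5p: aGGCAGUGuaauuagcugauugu
miR-449a-5p: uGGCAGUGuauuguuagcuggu
miR-449c-5p: aGGCAGUGcauugcuagcugg
miR-34a-5p: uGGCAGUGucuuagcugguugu
miR-34b-3p: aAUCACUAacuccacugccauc
miR-34c-3p: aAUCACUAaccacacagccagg
miR-449a-3p: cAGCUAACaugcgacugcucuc
miR-449c-3p: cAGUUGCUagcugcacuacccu
miR-34a-5p is no member and is shown because it carries the same seed, GGCAGUG. That seed stands in 4 of the 1679 mature sequences of the RefSeq table, the first 4 above, and all of these were tested. The opposite strands of miR-34b and miR-34c share a seed of their own, AUCACUA, found in 2 of the 1679. Those strands are alike in their first 10 bases and in 17 of 22 bases overall. Without gaps, miR-449a-5p and miR-449c-5p are alike in 18 of 21 bases, so reads with errors could be given to the wrong one of such pairs. The same limit applies to miR-34b-5p and miR-34c-5p, which are known to be close relatives. By contrast the 3p strands of miR-449a and miR-449c have seeds found in 1 sequence each.

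The 5 genes lie in 2 clusters. On GRCm38.p6, Mir34b lies at chr9:51103562-51103645 and Mir34c at chr9:51103034-51103110, both on the minus strand with 451 bases between them. In the GENCODE annotation they sit in intron 1 of Btg4, which is on the opposite strand. Mir449c lies at chr13:113035983-113036091, Mir449b at chr13:113037419-113037498 and Mir449a at chr13:113037534-113037624, all on the plus strand. These 3 hairpins span 1642 bases within intron 2 of Cdc20b, on the same strand as that gene, with 1327 bases between Mir449c and Mir449b and 35 between Mir449b and Mir449a.

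Values are given as log2 of 1 plus an equalized count, that is, a read count scaled by the authors between libraries. Library sums of equalized counts were not equal. They lay between 18087290 and 21189040 after bleomycin and between 20688471 and 24759615 after PBS. Scaling to equal sums, which would raise bleomycin values relative to PBS values, was not among the alternatives tried. The guide strand miR-34c-5p stood highest, at a mean equalized count of 122700 over the 15 libraries, and ranked between 23 and 35 among the 1424 miRNAs of a library. By the same mean equalized count, miR-449a-5p followed at 15280, then miR-34b-3p at 7043, miR-34c-3p at 5565, miR-34b-5p at 4754 and miR-449c-5p at 2627. Per nucleotide, the 7 members with a matched sequence kept this order, from 694.7 for miR-449a-5p to 0.3805 for miR-449c-3p. The log2 ranges of miR-34b-3p (12.21 to 13.24), miR-34c-3p (11.58 to 12.94) and miR-34b-5p (11.46 to 12.87) overlapped, so their order is not clear of the spread. The range of miR-449a-5p, 12.72 to 14.81, overlapped that of miR-34b-3p as well. Far below came miR-449a-3p, at a mean equalized count of 20.33, miR-449b, at 9.12, and miR-449c-3p, at 8.37.

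Among the members, miR-449b and miR-449c-3p were near the floor, with median equalized counts of 9.36 and 5.82, under the limit of 10 used here. A miRNA was tested where 3 or more libraries had an equalized count over 5, which all 9 members met, as did 818 miRNAs in all. For miR-449c-3p this rested on the bleomycin libraries, since 7 of the 8 bleomycin libraries and 1 of the 7 PBS libraries were above 5. The numbers were 8 and 3 for miR-449b and 8 and 5 for miR-449a-3p. Of the members, miR-449c-3p alone could pass only by being higher after bleomycin, and its rise is no support for the others.

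The first principal component of all tested miRNAs, with 44.0% of the variance, set bleomycin libraries (6.33 to 11.85) apart from PBS libraries (-13.69 to -7.26). WT PBS replicate 3 was the PBS library nearest to the bleomycin libraries, at -7.26, while the other PBS libraries lay between -13.69 and -10.23. Column names carry numbers whose meaning the labels do not give. The numbers of R213G libraries are all lower than those of WT libraries, so genotype and number range cannot be told apart. In WT all bleomycin libraries also have lower numbers than all PBS libraries. In R213G the 4 lower and the 4 higher numbers each hold 2 libraries of each treatment, which allows a comparison within each range of numbers.

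Over both genotypes, strands of all 3 miR-449 hairpins rose after bleomycin, and miR-449c-5p had the smallest p of them. In R213G lungs miR-449c-5p stood at 12.06, 12.03, 11.82 and 11.69 after bleomycin, against 9.86, 9.96, 9.58 and 10.37 after PBS. In WT lungs it stood at 11.66, 12.02, 12.37 and 11.80 after bleomycin, against 9.59, 9.80 and 11.05 after PBS. Every bleomycin library was above every PBS library, and WT PBS replicate 3 was the highest of the PBS libraries. The log2 difference was 1.95 ± 0.26 (SE) in R213G, or 3.87-fold, with a limma adjusted p of 3.2e-05. In WT it was 1.82 ± 0.28 (SE), or 3.52-fold (limma adjusted p = 0.00016), and 2.27 without WT PBS replicate 3. Over both genotypes miR-449c-5p ranked 25 of 818 by p and 24 by log2 difference.

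The most abundant miR-449 strand, miR-449a-5p, rose in both genotypes as well. It stood at 14.39, 13.96, 14.81 and 13.98 in R213G bleomycin libraries, against 13.44, 13.56, 12.72 and 13.76 in R213G PBS libraries. WT bleomycin libraries held 13.94, 14.17, 14.59 and 14.23, against 12.75, 12.96 and 13.35 in WT PBS libraries. The 2 treatments did not overlap in either genotype, but in R213G the lowest bleomycin library, 13.96, lay close above the highest PBS library, 13.76. The difference was 0.91 ± 0.22 (SE) in R213G, or 1.88-fold (limma adjusted p = 0.00405), and 1.21 ± 0.24 (SE) in WT, or 2.31-fold (limma adjusted p = 0.00156). Within the 4 R213G libraries with the lower numbers, the difference in mean log2 value was 1.52 (2 libraries a treatment), and within the 4 with the higher numbers it was 0.31. For miR-449c-5p these were 2.22 and 1.69.

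The scarce strands moved the same way, with less precision. The 3p strand of miR-449a stood at 5.39, 4.49, 5.21 and 4.62 in R213G bleomycin libraries, against 2.74, 2.69, 2.38 and 2.64 in R213G PBS libraries. In WT it was at 4.87, 5.15, 5.46 and 4.73 after bleomycin, against 3.35, 2.43 and 4.21 after PBS. miR-449a-3p rose by 2.32 ± 0.32 (SE) in R213G (limma adjusted p = 5.76e-05) and by 1.72 ± 0.35 (SE) in WT (limma adjusted p = 0.00164). No bleomycin library of either genotype fell within its PBS range.

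Near the floor, miR-449b was at 4.16, 4.05, 3.94 and 3.37 in R213G bleomycin libraries, against 1.94, 1.47, 0.04 and 2.89 in R213G PBS libraries. WT libraries held 3.54, 3.66, 4.24 and 3.88 after bleomycin, against 2.33, 2.63 and 2.92 after PBS. Again the treatments did not overlap. The rise of miR-449b in R213G, 2.30 ± 0.45 (SE), passed (limma adjusted p = 0.000818). Its WT difference of 1.20 ± 0.48 (SE) did not (limma adjusted p = 0.0763), although it did with a pseudocount of 5 in place of 1 (adjusted p = 0.019) or when only the WT groups were fitted (adjusted p = 0.0238).

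miR-449c-3p was at 3.14, 3.15, 5.25 and 4.12 in R213G bleomycin libraries, against 0.94, 0.00, 0.02 and 2.57 in R213G PBS libraries. In WT it was at 1.74, 3.95, 3.61 and 3.61 after bleomycin, against 1.90, 1.90 and 2.77 after PBS. The R213G treatments were separate and the WT treatments overlapped, through WT bleomycin replicate 1. miR-449c-3p rose in R213G, by 3.03 ± 0.62 (SE, limma adjusted p = 0.00124), and its WT difference of 1.04 ± 0.67 (SE) did not pass (limma adjusted p = 0.267). Several of these PBS values correspond to an equalized count under 1, so no fold is given for it.

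**Figure D1:**
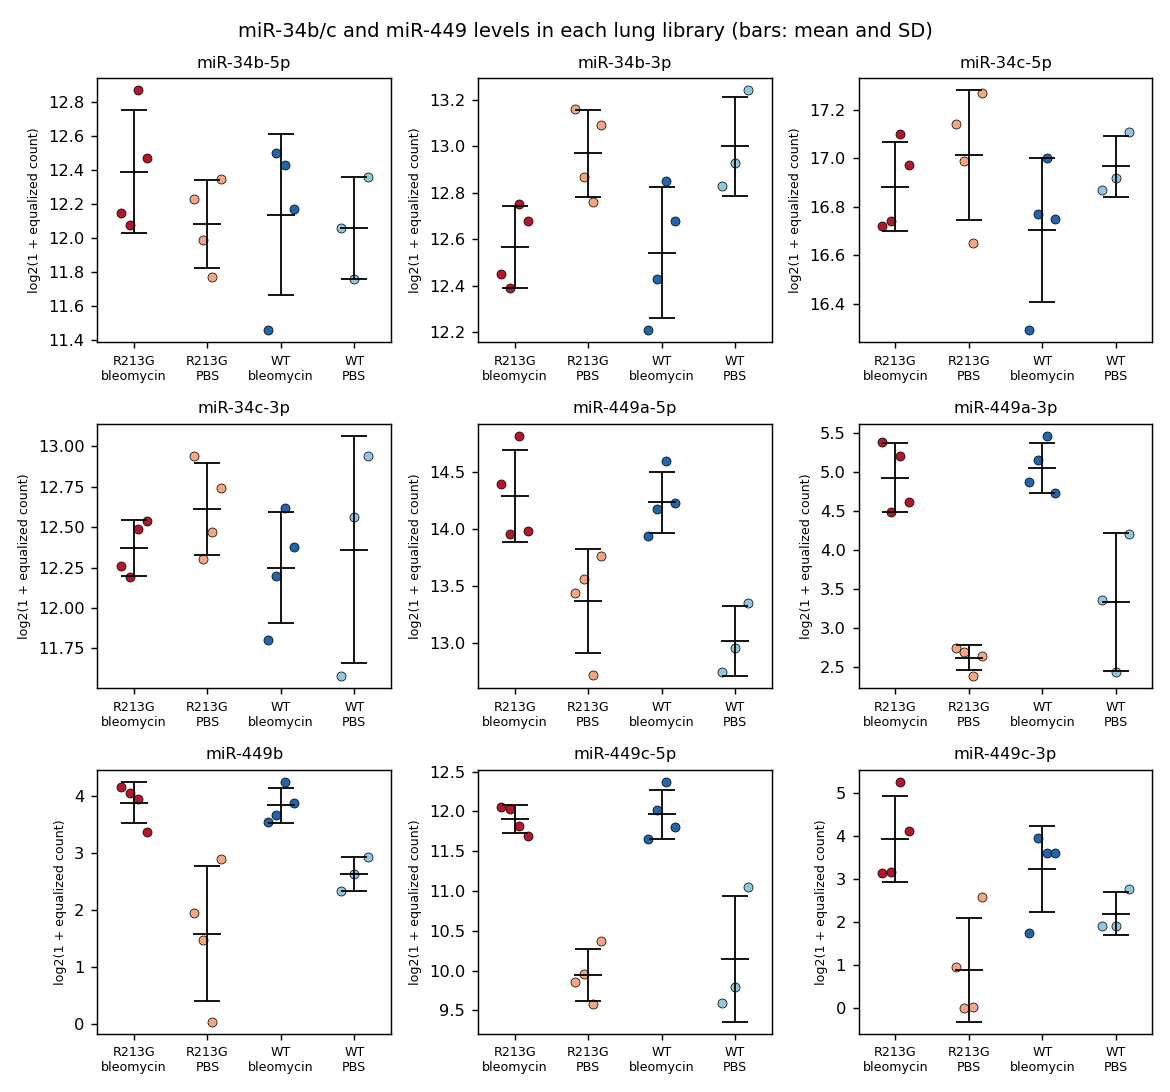
Level of each member in the 15 libraries, as log2 of 1 plus the equalized count on the vertical axis, which differs between panels and does not start at 0. Points are libraries, the bar is the group mean and the whiskers are 1 SD. For miR-449a-5p, miR-449a-3p, miR-449b and miR-449c-5p every bleomycin library lies above every PBS library, while the 4 miR-34b and miR-34c panels overlap over both genotypes.

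The miR-34b and miR-34c strands showed no such rise. The family's most abundant strand, miR-34c-5p, stood at 16.72, 16.74, 17.10 and 16.97 in R213G bleomycin libraries, against 17.14, 16.99, 16.65 and 17.27 in R213G PBS libraries. It stood at 16.29, 16.77, 17.00 and 16.75 in WT bleomycin libraries, against 16.87, 16.92 and 17.11 in WT PBS libraries. The treatments overlapped in both genotypes. Its difference was -0.13 in R213G (95% confidence interval -0.45 to 0.19, limma adjusted p = 0.5) and -0.26 in WT (-0.61 to 0.08, limma adjusted p = 0.24), so a rise of the size seen for miR-449c-5p lies outside both intervals. The sign depends on the scaling. Over both genotypes the miR-34c-5p difference was -0.20 (limma adjusted p = 0.149), -0.32 with equal library medians (adjusted p = 0.0149) and 0.10 with quantile normalization (adjusted p = 0.478).

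The opposite strand miR-34c-3p was at 12.26, 12.19, 12.49 and 12.54 in R213G bleomycin libraries, against 12.94, 12.30, 12.47 and 12.74 in R213G PBS libraries. WT libraries held 11.80, 12.20, 12.62 and 12.38 after bleomycin, against 11.58, 12.56 and 12.94 after PBS. Its differences of -0.24 (-0.74 to 0.26) in R213G and -0.11 (-0.65 to 0.43) in WT did not pass (limma adjusted p = 0.43 and 0.774). WT PBS replicate 1 was the lowest of all 15 libraries, and without it the difference over both genotypes was -0.37 (limma adjusted p = 0.0363), against -0.18 with it (adjusted p = 0.413).

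The 2 strands of miR-34b parted. The seed-bearing miR-34b-5p was at 12.15, 12.08, 12.87 and 12.47 in R213G bleomycin libraries, against 12.23, 11.99, 11.77 and 12.35 in R213G PBS libraries. In WT libraries it was at 11.46, 12.50, 12.43 and 12.17 after bleomycin, against 12.06, 11.76 and 12.36 after PBS. These overlapped, with differences of 0.31 (-0.16 to 0.78, limma adjusted p = 0.284) in R213G and 0.08 (-0.43 to 0.59, limma adjusted p = 0.834) in WT.

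Its partner miR-34b-3p, on average the more abundant strand, was at 12.45, 12.39, 12.75 and 12.68 in R213G bleomycin libraries, against 13.16, 12.87, 12.76 and 13.09 in R213G PBS libraries. WT libraries held 12.21, 12.43, 12.85 and 12.68 after bleomycin, against 12.83, 12.93 and 13.24 after PBS. All R213G bleomycin libraries were below all R213G PBS libraries, and in WT 1 bleomycin library lay within the PBS range. miR-34b-3p was called lower, with a difference of -0.40 ± 0.14 (SE) in R213G (limma adjusted p = 0.0338) and -0.46 ± 0.16 (SE) in WT (limma adjusted p = 0.0382). Over both genotypes it was -0.43 ± 0.11 (SE), or 0.743-fold (limma adjusted p = 0.00323). The calls within 1 genotype were near the threshold. The WT call was lost without WT bleomycin replicate 1 (-0.34) or 2 (-0.42) or WT PBS replicate 2 (-0.49) or 3 (-0.33). The R213G call was lost without R213G bleomycin replicate 1 (-0.36) or 2 (-0.34) or R213G PBS replicate 1 (-0.34) or 4 (-0.36). The difference over both genotypes kept its call whichever library was left out, between -0.48 and -0.37.

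In R213G, 5 of the 9 members rose, 1 fell and 3 did not pass, where 22.2% of all 818 tested miRNAs rose and 19.8% fell (42.1% called). In WT 3 rose, 1 fell and 5 did not pass, where 16.4% of all tested miRNAs rose and 10.3% fell (26.7% called). Over both genotypes 5 rose, 1 fell and 3 did not pass, where 28.7% rose and 22% fell (50.7% called). Leaving aside miR-449c-3p, 4 of 8 rose in R213G and over both. Bleomycin libraries were all above PBS libraries for 5 members in R213G and 4 in WT, where 21.9% and 18.7% of all tested miRNAs were so arranged, and for 4 in each genotype leaving aside miR-449c-3p. That held over both genotypes together for 4 members, and for 10.1% of all tested miRNAs. The reverse, bleomycin libraries all below PBS libraries, held for 1 member in R213G (17.4% of all tested), 0 in WT (13.6%) and 0 over both (6.48%). The median log2 difference over both genotypes was 1.06 for the members, 0.63 leaving aside miR-449c-3p, and 0.08 for all tested miRNAs. Equal library medians moved the median of all tested miRNAs by more than 0.1, to -0.08 in R213G, -0.07 in WT and -0.05 over both, and split the calls into 148 up and 199 down in R213G and 110 up and 121 down in WT, in place of 182 and 162, and 134 and 84. The rises of miR-449a-5p, miR-449a-3p and miR-449c-5p in each genotype passed under every scaling tried.

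**Figure D2:**
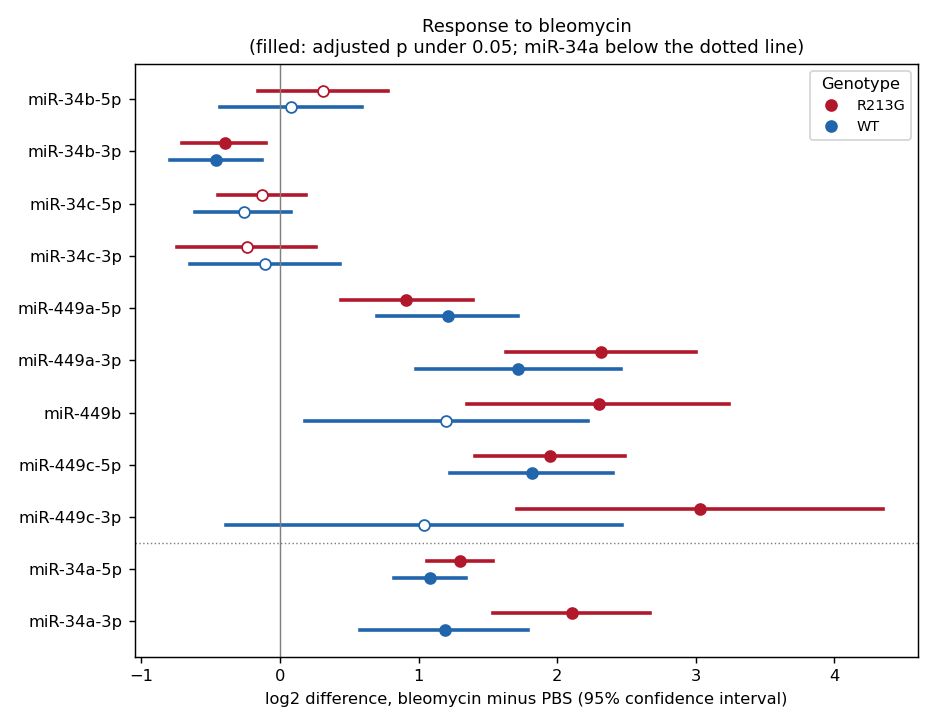
Log2 difference of bleomycin minus PBS for each member and for both strands of miR-34a, with 95% confidence intervals from the fit over all 818 tested miRNAs, R213G above WT in each row. Filled points have an adjusted p under 0.05. The 5 miR-449 rows lie right of 0 and the 4 miR-34b and miR-34c rows lie near it, with miR-34b-3p left of 0 in both genotypes.

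Differences between 2 miRNAs of the same library hardly depend on a single scaling factor per library, but quantile normalization, which changes the values within a library, can move them. The log2 value of miR-449c-5p minus that of miR-34c-5p lay between -5.28 and -4.63 in the 8 bleomycin libraries and between -7.28 and -6.06 in the 7 PBS libraries. Bleomycin and PBS means differed by 2.08, with no overlap (exact permutation within genotype, two-sided p = 0.000408, the smallest it can give, adjusted p = 0.00429 over 21 tests). Taken alone, each genotype reached p = 0.0286 by the same exact permutation test, the smallest it allows there, and an adjusted p of 0.05, which is not below the threshold. For miR-449a-5p minus miR-34c-5p the range was -2.99 to -2.29 after bleomycin and -4.12 to -3.43 after PBS, and the treatments differed by 1.26 (exact permutation, adjusted p = 0.00429). This second pair was chosen after its values were seen. With quantile normalization the differences were 1.74 and 1.00 (exact permutation, adjusted p = 0.00286 for each). Both miR-449 strands therefore rose relative to miR-34c-5p.

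Within the miR-34b hairpin, the 5p strand gained on the 3p strand. The 5p minus 3p value was -0.31, -0.31, 0.12 and -0.21 in R213G bleomycin libraries, against -0.94, -0.88, -0.99 and -0.73 in R213G PBS libraries. WT libraries held -0.75, 0.07, -0.42 and -0.51 after bleomycin, against -0.76, -1.16 and -0.88 after PBS. Every R213G bleomycin library was above the highest R213G PBS library, and in WT bleomycin replicate 1 lay just above the highest PBS library. The mean was -0.29 ± 0.29 (SD, n = 8) after bleomycin and -0.91 ± 0.14 (SD, n = 7) after PBS, a difference of 0.62 (exact permutation within genotype, two-sided p = 0.000816, adjusted p = 0.00571). It was between 0.54 and 0.68 whichever library was left out. Taken alone, neither genotype passed (exact permutation, adjusted p = 0.05 in R213G and 0.0923 in WT). In miR-34c no change between the strands was called, with a 5p minus 3p value of 4.48 ± 0.09 (SD, n = 8) after bleomycin and 4.49 ± 0.40 (SD, n = 7) after PBS (exact permutation, adjusted p = 0.934). That rests on the scaling in part, since with quantile normalization the 5p minus 3p value of miR-34c was higher after bleomycin by 0.34 over both genotypes (exact permutation, adjusted p = 0.16) and by 0.52 in R213G (exact permutation, adjusted p = 0.15), where neither passed.

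The 5p strand of miR-34b also gained on miR-34c-5p from the same cluster, by 0.39 over both genotypes (exact permutation, adjusted p = 0.00857). That call was lost with quantile normalization, at 0.13 (exact permutation, adjusted p = 0.41). Neither genotype passed alone, at 0.44 in R213G and 0.34 in WT (exact permutation, adjusted p = 0.05 and 0.171). For miR-449a the 5p strand lost ground to its scarce 3p strand over both genotypes, with a change of -0.96 in the difference (exact permutation, adjusted p = 0.0137). Within 1 genotype it did not pass, at -1.40 in R213G and -0.51 in WT (exact permutation, adjusted p = 0.05 and 0.282), and the WT treatments overlapped. Its size depended on the pseudocount, since with 5 in place of 1 the R213G change was -0.86 (exact permutation, adjusted p = 0.0462). The pair of miR-34b-5p and miR-34c-5p and the pair of miR-449a strands were both chosen after their values were seen. The 5p minus 3p value of miR-449c changed by -0.15 over both genotypes (exact permutation, adjusted p = 0.842), and its sign was not stable. It was 0.71 with a pseudocount of 5, 0.18 with quantile normalization and 0.09 without R213G bleomycin replicate 3.

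**Figure D3:**
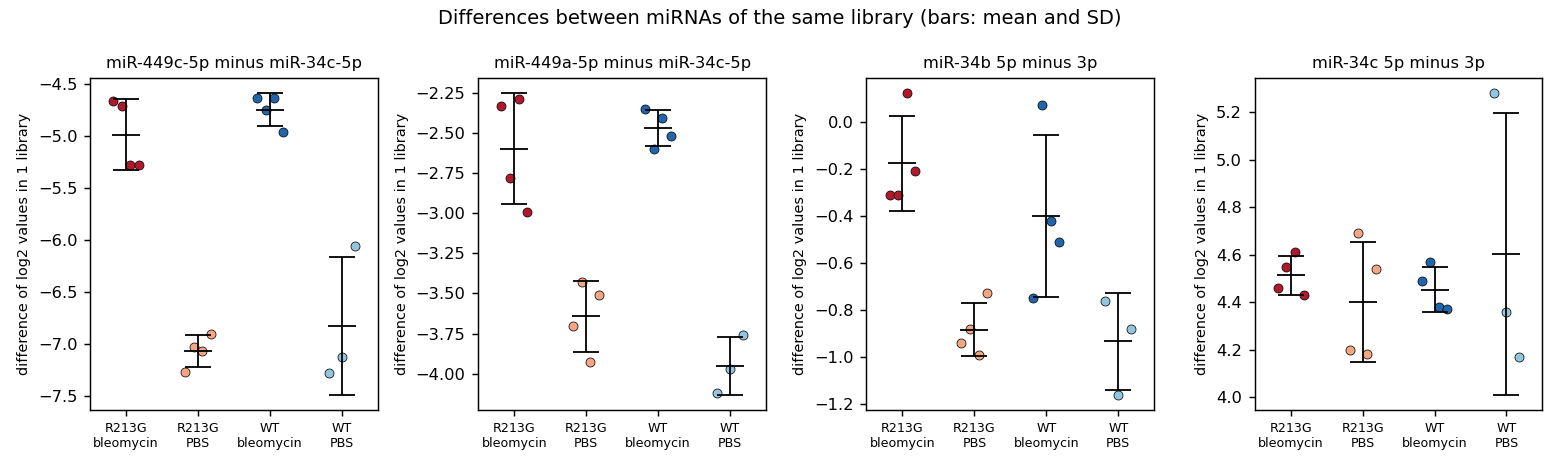
Differences of log2 values between 2 miRNAs of the same library, for miR-449c-5p and miR-449a-5p against miR-34c-5p and for the 2 strands of miR-34b and of miR-34c. Points are libraries, bars are group means and whiskers are 1 SD. The first 2 panels show bleomycin libraries clear of PBS libraries. In the miR-34b panel bleomycin libraries lie above PBS libraries within each genotype, only just in WT, and the treatments overlap across genotypes. The miR-34c panel shows overlap.

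As a measure of the whole family, the 5p strands and miR-449b were summed. The sum of these 5 rows was 0.784% ± 0.079 of the library in R213G bleomycin libraries and 0.672% ± 0.120 in R213G PBS libraries (SD, n = 4 each). It was 0.677% ± 0.123 (SD, n = 4) in WT bleomycin libraries and 0.633% ± 0.120 (SD, n = 3) in WT PBS libraries, and the ranges of the treatments overlapped in both genotypes. These percentages divide by library sums, which tended to be lower after bleomycin. As an equalized count, the sum of the 5 rows was 133782 to 180211 in R213G bleomycin libraries and 114065 to 179047 in R213G PBS libraries. In WT it was 101826 to 166421 after bleomycin and 131360 to 159414 after PBS. A rise of the whole sum is therefore not shown. Its makeup was different. The miR-449 rows made up 16.1% ± 2.75 of the sum in R213G bleomycin libraries and 7.86% ± 1.04 in R213G PBS libraries (SD, n = 4 each). In WT they made up 17.3% ± 1.15 (SD, n = 4) after bleomycin and 6.74% ± 1.06 (SD, n = 3) after PBS. Over all libraries the shares ran from 12.69% to 18.64% after bleomycin and from 5.83% to 8.88% after PBS, without overlap. The share of miR-34c-5p was 80.3% ± 2.81 in R213G bleomycin libraries, against 89.2% ± 0.923 in R213G PBS libraries. These shares are descriptive and rest on read counts, in which miRNAs can differ in how well they are captured.

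R213G and WT lungs were not told apart by any member. After PBS, R213G minus WT differences lay between -1.30 for miR-449c-3p and 0.35 for miR-449a-5p, and 0 of 9 passed, as did 0% of all 818 tested (limma, with 44 of 818 at an unadjusted p under 0.05). After bleomycin they lay between -0.12 for miR-449a-3p and 0.69 for miR-449c-3p, and again 0 of 9 and 0% of all passed (limma, 97 of 818 at an unadjusted p under 0.05). For the abundant strands the intervals are fairly narrow. The 95% confidence interval of the R213G minus WT difference after bleomycin was -0.14 to 0.50 for miR-34c-5p, -0.42 to 0.53 for miR-449a-5p and -0.60 to 0.48 for miR-449c-5p. After PBS the interval of miR-449c-5p was -0.78 to 0.38.

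The difference between the genotypes' bleomycin responses was tested as an interaction, where 0 of 9 members and 0% of all tested miRNAs passed (limma, 65 of 818 at an unadjusted p under 0.05). The interaction of miR-449c-5p was 0.14, with an interval of -0.66 to 0.93, and that of miR-449a-5p was -0.30, with an interval of -1 to 0.40. The only member with an unadjusted p under 0.05 was miR-449c-3p, at 1.99 (limma adjusted p = 0.611), and it is near the floor. Calls for miR-449b and miR-449c-3p in R213G and not in WT are thus not shown to differ between genotypes.

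Within groups, the members varied together from library to library. For each member the group mean was taken off, and the deviations of 2 members were correlated over the 15 libraries, with libraries permuted within groups for the p-values. All 36 pairs had a positive r, from 0.27 to 0.90 with a median of 0.60, against a median of 0.02 over all pairs of the 818 tested miRNAs. Of the 36, 18 had an adjusted p under 0.05 by Pearson's r and 17 by Spearman's rho, 16 of them by both. The neighbours miR-34b-5p and miR-34c-5p had r = 0.90 and rho = 0.89 (permutation, adjusted p = 0.00369 and 0.00405), and r = 0.84 without the 2 libraries farthest from the median. For miR-34b-3p and miR-34c-3p, which share a seed, r was 0.83 and rho 0.86 (permutation, adjusted p = 0.00432 and 0.00405), and r was 0.76 without 2 libraries.

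Across the clusters, miR-34c-5p and miR-449a-5p had r = 0.79 and rho = 0.74 (permutation, adjusted p = 0.0113 and 0.0235), and r = 0.70 without 2 libraries. Inside the miR-449 cluster, miR-449a-5p and miR-449c-5p had r = 0.64 and rho = 0.63 (permutation, adjusted p = 0.018 and 0.0352), with r = 0.75 without 2 libraries. The pair miR-34c-5p and miR-449c-5p was looser, with r = 0.54 and rho = 0.54 (permutation, adjusted p = 0.0415 and 0.0743), and r = 0.44 without 2 libraries. Some pairs of the same hairpin or cluster did not pass. For miR-449c-5p and miR-449c-3p r was 0.44, and for miR-449a-3p and miR-449b it was 0.30 (permutation, adjusted p = 0.089 for each). Yet miR-449c-3p, near the floor, had r = 0.89 with miR-34b-5p and 0.87 with miR-34c-5p, among the highest values. All points of a pair share the library and its scaling.

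**Figure D4:**
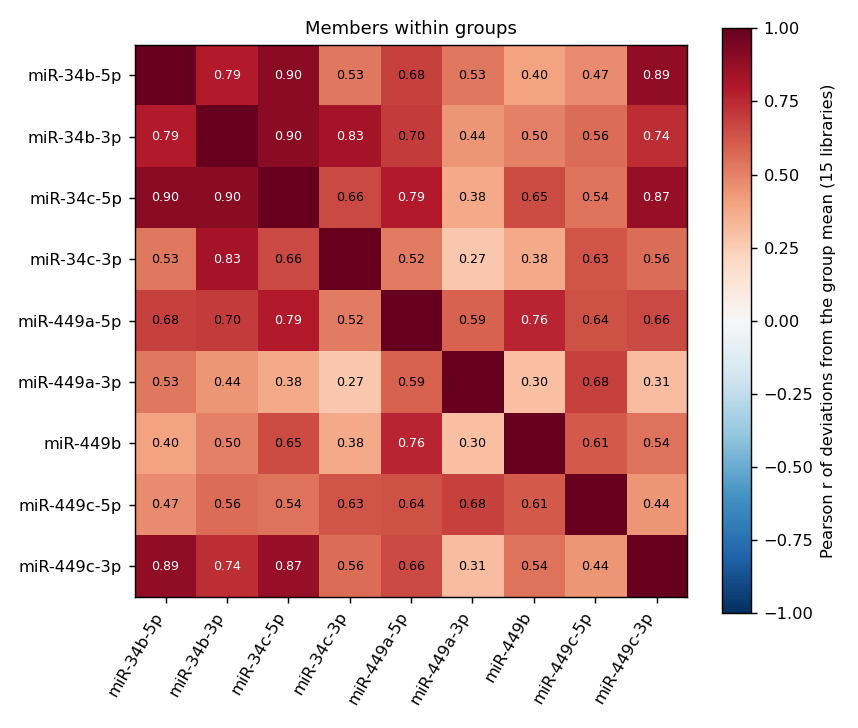
Pearson's r between members, computed on deviations from the group mean over 15 libraries, with red for positive values. All cells are positive, and the highest values, 0.90, join miR-34c-5p to miR-34b-5p and to miR-34b-3p.

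Among the 809 other tested miRNAs, those whose within-group deviations were most like miR-34c-5p over the 15 libraries were miR-3105-3p (r = 0.90), miR-375-3p (r = 0.79) and miR-465b-5p (r = 0.78). For miR-449a-5p they were miR-200b-5p (r = 0.81), miR-145a-3p (r = 0.80) and miR-3105-3p (r = 0.79). For miR-449c-5p they were miR-466h-5p (r = 0.78), miR-329-5p (r = 0.76) and miR-147-3p (r = 0.75). These are the highest of many values and are given as a description.

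Not every miRNA with the seed rose. Of the 4 tested miRNAs whose matched sequence carries GGCAGUG, miR-449a-5p, miR-449c-5p and miR-34a-5p rose in both genotypes and miR-34b-5p did not pass. This count leaves out miR-34c-5p and miR-449b, for which no sequence was matched, and of which miR-34c-5p passed in neither genotype and miR-449b in R213G only. In R213G libraries miR-34a-5p, the p53-induced relative encoded apart from both clusters on chromosome 4, stood at 12.68, 12.49, 13.05 and 12.63 after bleomycin, against 11.29, 11.37, 11.61 and 11.38 after PBS. WT libraries held 12.30, 12.45, 12.53 and 12.50 after bleomycin, against 11.31, 11.39 and 11.41 after PBS. Its difference was 1.30 ± 0.11 (SE) in R213G and 1.08 ± 0.12 (SE) in WT (limma adjusted p = 3.14e-07 and 8.18e-06), next to the values of miR-449a-5p and above those of miR-34b-5p and miR-34c-5p. Of the 10 miRNAs of the p53-linked list, 2 rose over both genotypes, both strands of miR-34a, 5 fell and 3 did not pass, with miR-192-5p at -0.48. Of all tested miRNAs, 28.7% rose and 22% fell over both genotypes. Among those that fell were miR-143-3p (-0.29) and miR-145a-5p (-0.28), which are also counted in the smooth muscle list below.

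miRNAs of epithelium in general and of other cell types moved with bleomycin too, and their part in the results above was not tested. The counts of each list below stand beside 28.7% of all 818 tested miRNAs that rose over both genotypes and 22% that fell (50.7% called). Of 12 epithelial miRNAs, 0 rose, 9 fell and 3 did not pass over both genotypes, with a median of -0.32. Among them were miR-31-5p (-0.75), miR-205-5p of basal epithelium (-1.59) and miR-203-3p (-0.35). Their summed equalized count was 380200 to 471700 in R213G bleomycin libraries and 472600 to 550000 in R213G PBS libraries, and 421200 to 494800 in WT bleomycin libraries and 485600 to 523700 in WT PBS libraries.

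Of 7 leukocyte miRNAs 5 rose over both genotypes, among them miR-511-3p (1.50), miR-155-5p (1.03) and miR-223-5p (0.88). The 1 that fell was miR-150-5p (-0.31, limma adjusted p = 0.0256), and the 1 that did not pass was miR-223-3p (0.03, limma adjusted p = 0.812). Their sum was 140600 to 169300 in R213G bleomycin libraries and 160500 to 180400 in R213G PBS libraries, and 147000 to 192100 in WT bleomycin libraries and 119800 to 133900 in WT PBS libraries. Red cell miRNAs fell in 4 of 5 cases, with the near-identical miR-486a-5p and miR-486b-5p, whose reads may be split between them, at -1.88 each and miR-144-5p at -1.62. Their sum was 66250 to 231700 in R213G bleomycin libraries and 136700 to 392600 in R213G PBS libraries, and 41400 to 60260 in WT bleomycin libraries and 161000 to 392200 in WT PBS libraries. All 3 smooth muscle miRNAs fell, miR-145a-3p by 0.41 on the log2 scale, and so did 3 of 5 tested striated muscle miRNAs, with miR-133a-3p at -1.85, miR-1a-3p at -1.30 and miR-208b-3p at -0.51. The striated muscle sum was 4440 to 9039 in R213G bleomycin libraries and 22390 to 31510 in R213G PBS libraries, and 8518 to 15150 in WT bleomycin libraries and 16730 to 82530 in WT PBS libraries. Of the endothelial pair, miR-126a-3p fell (-0.27) and miR-126a-5p did not pass (0.20). In these lists, 1 striated muscle miRNA was at 0 in some library and no other member was.

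In the authors' deposited table, 2 members passed a parametric q-value of 0.05 for bleomycin in R213G, miR-449c-5p (q = 0.00818) and miR-449a-3p (q = 0.0161). For bleomycin in WT the authors' deposited table had none, and its lowest member q-value was 0.0963, for miR-449b. It had none between the genotypes, where the lowest member q-values were 0.809 after bleomycin and 0.914 after PBS.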

How the data were processed

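RNA was isolated by the authors with a miRNeasy kit from pulverized frozen lungs, per the labels' protocols. Bowtie2 2.3.2, SAMtools 1.9 and edgeR are named in the submitters' processing notes, with genome build and miRBase release both not given in the sources used here. The deposited log2 values were taken from the values themselves to be log2 of 1 plus an equalized count, since no source used here describes the unit. The deposited table's name mentions RPKM, but values near an equalized count of 1, taken as about a single read, hardly differed with miRNA length. Read depth was not estimated, and no counting interval was computed. The deposited log2 fold changes equal differences of group means within 7.2e-09, and the authors' p-values and q-values come from Welch and Wilcoxon tests.

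The log2 values of 818 miRNAs were fitted with limma 3.58.1 (R 4.3.3), using 4 group means, an intensity trend and all 15 libraries, and this fit was tested on simulated data. The 6 contrasts were bleomycin against PBS in each genotype and over both, R213G against WT after each treatment, and the interaction. An adjusted p under 0.05 (Benjamini and Hochberg over 818 miRNAs) was called. Within-library differences used exact permutation tests with adjustment over 21 tests, and correlations used 100000 permutations within groups (numpy 2.4.6, scipy 1.17.1). Named miRNAs were all members in all contrasts, miR-34a for its seed, the 3 most correlated miRNAs for each of miR-34c-5p, miR-449a-5p and miR-449c-5p, and up to 3 per list with the smallest p over both genotypes. The members and lists were chosen with earlier results of these data known. Alternatives covered the filter, scaling, pseudocount, trend, array weights, fitted groups, a replicate term, a term for number range in R213G and each library left out.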

Additional observations from a re-analysis of the deposited data

Results flagged for a closer look

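In WT lungs after bleomycin, miR-449c-3p was at a log2 value of 1.74 in replicate 1 and between 3.61 and 3.95 in the other 3 libraries. Its gap to the nearest library was 0.844 of the group's whole range, above the limit for 4 libraries. This was 1 of 48 sets of 4 libraries examined, and chance alone gives about 1 in 20. The miRNA is near the floor. The same library was the lowest of its group for 8 of the 9 members, all but miR-449a-3p.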

How the results depend on the processing

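Of 1532 values recomputed under an alternative, 1445 kept their direction and their side of the threshold, or a count within 1.5 times, 13 lost a call, 12 gained one, 58 changed sign and 4 counts moved. For miR-449a-5p, miR-449a-3p and miR-449c-5p, all bleomycin differences kept their call wherever they could be fitted. Under the stricter filter, with 50 in place of 5, miR-449a-3p, miR-449b and miR-449c-3p were no longer tested, and 3 members were called in R213G and 3 over both genotypes. Fitting only the compared groups was not possible over both genotypes or for the interaction, which use all groups. Without the intensity trend the miR-34b-3p call was lost in R213G (adjusted p = 0.0614) and in WT (adjusted p = 0.0707), and it was lost in WT with array weights (-0.33, adjusted p = 0.105) or only the WT groups (adjusted p = 0.0861). The cause was not tested.

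Replicate numbers were not shown to pair the samples. Deviations of same-numbered libraries correlated between -0.14 and 0.26 (median 0.06, 8 of 21 pairs over 0.1). Those of other numbers correlated between -0.34 and 0.27 (median -0.02, 11 of 63 pairs over 0.1). Same-numbered pairs were thus over 0.1 more often, and this difference was not tested. With the replicate block, 348 miRNAs were called in R213G, 215 in WT and 410 over both, with 6, 4 and 6 members among them, and the sign of miR-34b-5p between genotypes after PBS changed (-0.02).

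Other changes of sign were among differences that did not pass. Equal library medians gave -0.04 for miR-34b-5p in WT. Quantile normalization gave miR-34c-5p 0.22 in R213G and 0.10 over both, and, between genotypes after PBS, -0.05 for miR-34b-5p and -0.02 for miR-34c-5p. Array weights gave 0.13 for miR-34c-3p in WT. Between genotypes they gave 0.04 for miR-34b-3p and 0.07 for miR-449c-5p after PBS, and -0.03 for miR-34b-3p, -0.10 for miR-449a-5p and -0.12 for miR-449b after bleomycin, where 2 of 818 miRNAs were called. Their interaction was -0.07 for miR-34b-3p and -0.21 for miR-449c-5p.

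A pseudocount of 5 brought several within-genotype tests from an adjusted p of 0.05 to 0.0462 (exact permutation). In R213G these were miR-34b 5p minus 3p (0.71), miR-449a 5p minus 3p (-0.86), miR-449c-5p minus miR-34c-5p (2.08), miR-449a-5p minus miR-34c-5p (1.05) and miR-34b-5p minus miR-34c-5p (0.44), and in WT miR-449c-5p minus miR-34c-5p (2.08) and miR-449a-5p minus miR-34c-5p (1.47). For miR-449c 5p minus 3p it gave 0.29 in R213G, 1.13 in WT, which then passed, and 0.71 over both. Quantile normalization of these within-library differences was added after seeing the data. It changed the sign of miR-34c 5p minus 3p in WT (0.15) and over both (0.34) and of miR-449c 5p minus 3p over both (0.18), and ended the call of miR-34b-5p minus miR-34c-5p over both (0.13).

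Leaving out 1 library at a time, signs changed for these. In WT, miR-34b-5p lay between -0.07 and 0.30, miR-34c-3p between -0.50 and 0.17 and miR-34c 5p minus 3p between -0.37 and 0.19. Over both genotypes, miR-34c 5p minus 3p lay between -0.13 and 0.15 and miR-449c 5p minus 3p between -0.36 and 0.09. Between genotypes after PBS, ranges were -0.13 to 0.17 for miR-34b-5p, -0.12 to 0.09 for miR-34b-3p, -0.04 to 0.17 for miR-34c-5p, -0.14 to 0.54 for miR-34c-3p and -0.48 to 0.25 for miR-449c-5p. After bleomycin they were -0.09 to 0.13 for miR-34b-3p, -0.03 to 0.24 for miR-34c-3p, -0.12 to 0.17 for miR-449a-5p, -0.28 to 0.02 for miR-449a-3p, -0.04 to 0.22 for miR-449b and -0.17 to 0.07 for miR-449c-5p, with 0 to 1 of 818 miRNAs called. For the interaction they were -0.07 to 0.16 for miR-34b-3p, -0.01 to 0.23 for miR-34c-5p, -0.42 to 0.26 for miR-34c-3p and -0.32 to 0.42 for miR-449c-5p. Read depth was not estimated, so how much it limits the rows near the floor was not measured. The number of miRNAs at 0 in a library ran from 61 to 271 after bleomycin and from 112 to 333 after PBS. After bleomycin it differed by replicate number. Replicates 1 and 3 had 61 each in R213G and 82 each in WT. Replicates 2 and 4 had 218 and 229 in R213G and 238 and 271 in WT. In R213G bleomycin libraries this split followed the range of numbers in the column names. PBS libraries did not show the same split. Whether this bears on the calls of miR-449b and miR-449c-3p was not tested.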
